A study of Mus musculus with 6 samples.

Results

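The genes described here are those of the synaptic vesicle cycle, the SNARE fusion machinery and the scaffolds on both sides of the synapse. They were chosen by gene symbol alone (synaptotagmins, synapsins, synaptophysins, synaptogyrins, SNAP, syntaxin, syntaxin-binding, VAMP and SV2 proteins, neurexins, neuroligins, Dlg, Dlgap, Shank and Homer proteins, Rab3, Rims, Unc13 and complexin families, Bsn, Pclo and Nsf). The choice gave 77 of the 10989 genes in the deposited table. Another 24 of the 102 protein-coding genes that RefSeq lists under fitting symbols were not analysed here. Snap91 entered through its symbol; it encodes the clathrin adaptor AP180 and is not a SNARE.

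RNA was measured by sequencing in 6 libraries from mouse brain, 3 of sorted endothelial cells (Positive) and 3 of the dissociated brain cell suspension before sorting (Input). All 6 came from mice with the genotype Tie2-cre+; NuTRAP+ and carry WT in their titles; age and sex are not given in the labels. Tie2 is another name of Tek, whose promoter drove the Cre recombinase, and NuTRAP is a Cre-dependent reporter that marks ribosomes with EGFP. The sort took cells that were EGFP+, CD31+ and CD11b-. Both fractions thus come from mice with the same transgenes, and Input itself holds endothelial cells, so that each fold change compares the sorted cells with a mixture that contains them. Each fraction has replicates numbered 1222, 1223 and 1227. Libraries are given in that order throughout.

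Release of a synaptic vesicle at a nerve terminal needs a SNARE complex of a vesicle protein (VAMP2) with a syntaxin and SNAP25 on the plasma membrane. Syntaxin-binding and Munc13 (Unc13) proteins guide its assembly, complexins and synaptotagmins make fusion answer to calcium, and NSF takes the complex apart again. The same reaction, run by other members of the same families, carries vesicles between the organelles of every cell and to its surface. Neurexins and neuroligins join the membranes across the cleft, and Dlg, Dlgap, Shank and Homer proteins form the scaffold beneath the receiving membrane. Endothelial cells form no chemical synapses, and members known from neurons, from other cells and from both stand side by side in these families.

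Of the 77 genes, 12 were higher in Positive than in Input (15.6%, against 26.1% of all genes tested), 46 were lower (59.7%, against 29.4% of all genes) and 19 did not pass the test; 55.5% of all genes passed in either direction. With the replicate numbers kept as a block, 12 were higher (30.0% of all genes) and 47 lower (31.7%). A gene counts as higher or lower where edgeR's quasi-likelihood test, fitted on all 10989 genes, gave a Benjamini-Hochberg adjusted p below 0.05. The median log2 fold change of Positive over Input was -1.01 for the 77 genes and 0.03 for all genes, and the members ran from -4.42 (Sv2a) to 1.98 (Unc13b). Among the lower genes, 24 were lower by over 8-fold (8.11% of all genes were), and 5 of the higher genes were higher by over 2-fold (12.7% of all genes were). In 47 members every Positive library lay below every Input library (32.6% of all genes), and in 13 every Positive library lay above (31.8%).

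The deposited table holds a gene only where at least 1 fraction had an estimated count of at least 50 in all its libraries. Through Input alone 31 of the members entered, and such a gene fell under 50 counts in some Positive library, so that it was selected toward lower Positive values and the count of these genes supports nothing; all 31 were lower in the test, as were 80.7% of all genes that entered this way. Of the 45 members that reached 50 in both fractions, 12 were higher (30.4% of all such genes), 15 lower (19.9%) and 18 did not pass, with a median log2 fold change of 0.08. Vamp1 alone entered through Positive alone.

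**Figure D1:**
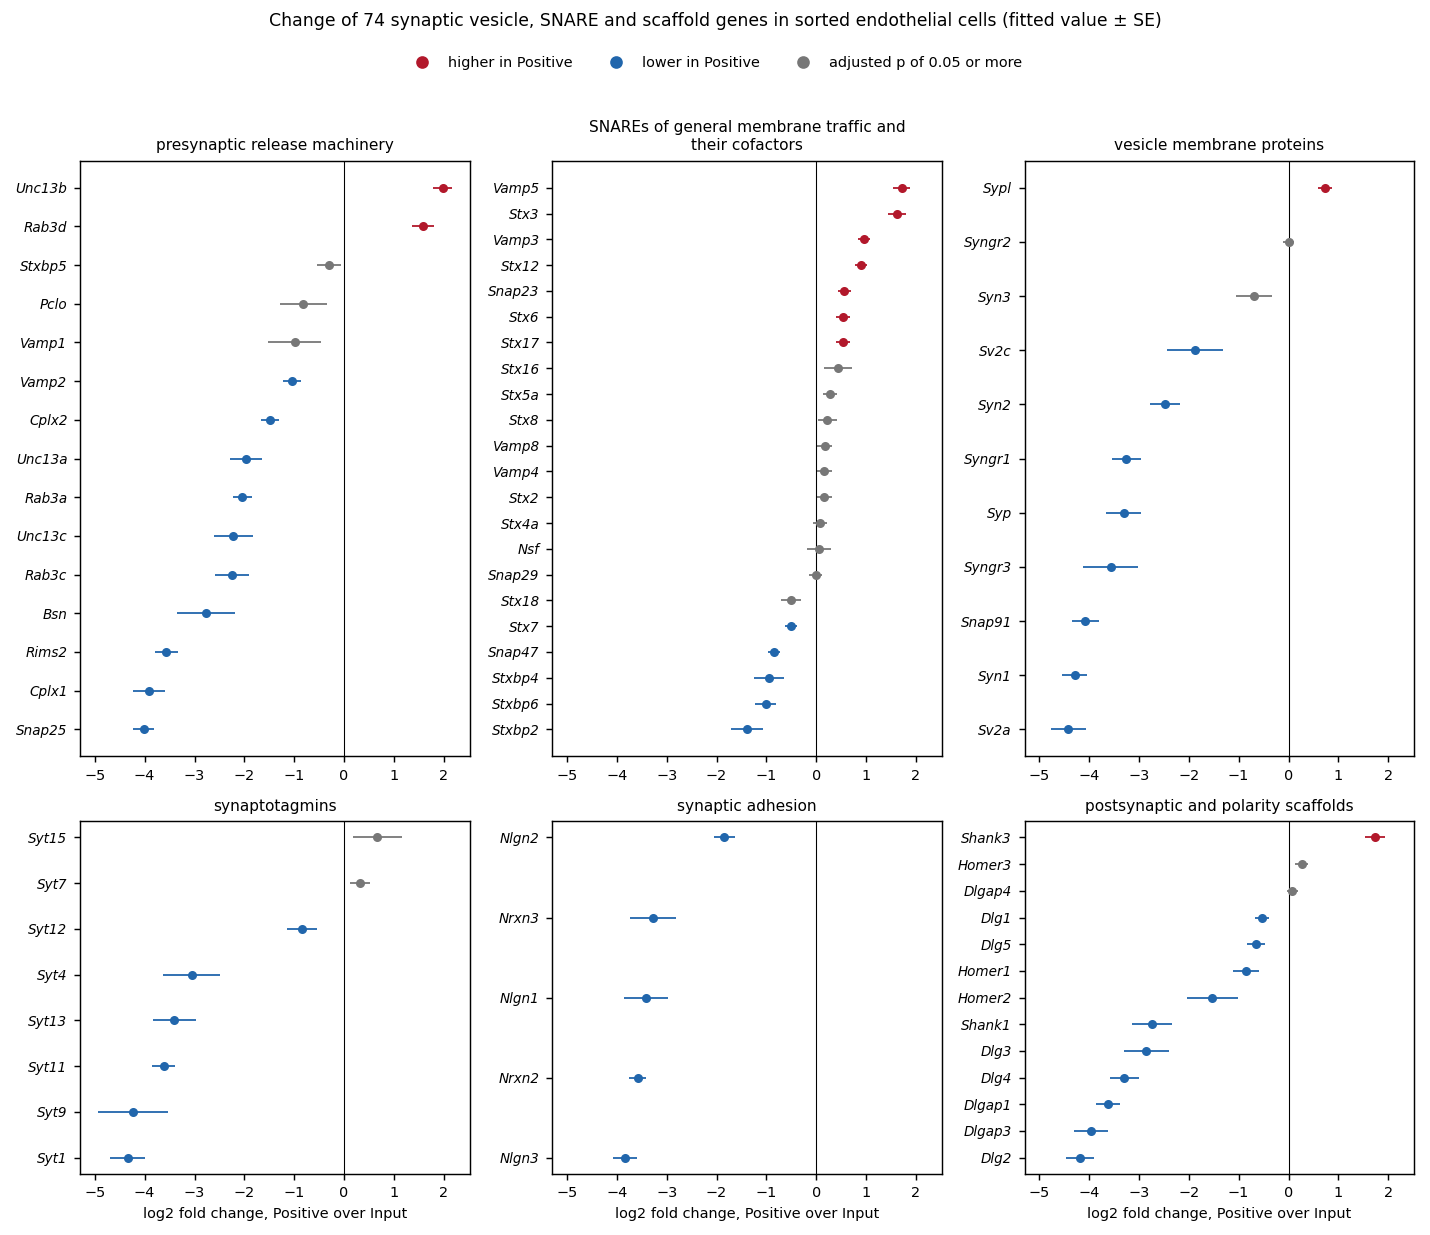
Fitted log2 fold change of Positive over Input (x axis) for 74 of the 77 genes, arranged by role, with bars of 1 SE and colour showing the call at adjusted p below 0.05. The SNAREs of general membrane traffic lie around 0, between -1.39 and 1.71, while the synaptic adhesion genes shown all lie at -1.85 or lower.

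All 10 endothelial markers, among them Pecam1, Cdh5 and Cldn5, were higher, with log2 fold changes from 2.69 to 3.20. In CPM, which take each library's total after TMM correction as the scale, their summed level was 21067, 23000 and 21126 in Positive against 2650, 3531 and 2628 in Input. The 8 neuronal markers tested of 12 listed were all lower in Positive (median log2 fold change -3.87, from -4.50 for Camk2a to -1.19 for Stmn2), and their summed level was 50.8, 74.3 and 74.8 CPM in Positive against 454, 536 and 594 CPM in Input. Of the 8, 6 entered through Input alone, where 80.7% of all genes were lower. None of the 8 was at 0 in a Positive library. All 8 oligodendrocyte markers (632 to 1377 CPM summed in Positive, 18972 to 28047 CPM in Input) and all 8 astrocyte markers (546 to 846 CPM in Positive, 5611 to 8865 CPM in Input) were lower too. All 7 pericyte markers were higher (1226 to 1936 CPM in Positive, 654 to 774 CPM in Input). Of 9 microglia and macrophage markers 6 were lower, while Mrc1 and Cd163 were higher, with their highest values in Positive 1222, where the summed level of the list was 3039 CPM against 1380 and 966 CPM in the other two. What part RNA of these other cells has in the levels below was not tested, and in bulk RNA fewer cells of a type and less RNA per cell cannot be told apart.

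Depth differed between libraries: the summed estimated counts were 23525401, 4772866 and 19708830 in Positive and 31607627, 4814966 and 52283556 in Input, so that values from replicate 1223 rest on the fewest reads. No label ties a number to an animal, although the series text calls the replicates biological, and p-values measure the spread between these libraries.

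Promoter sequences were set out for 5 members. In 3 of them, Syn1, Unc13a and Nlgn1, a promoter window held the left part of the RE1 element. These 3 were the only members with such a window and are shown because they had one. For Nlgn1, any window without the element was left out. RE1 is the binding sequence of REST, a repressor of neuronal genes in other cells. The others were Unc13b and Vamp5, the members with the largest and the third largest rise in Positive. Syn1, Unc13a and Nlgn1 were all lower in Positive. All 3 entered through Input alone, where 80.7% of all genes were lower, and whether the element has a part in their levels was not tested. Unc13a and Unc13b are paralogs that went opposite ways. Each window runs from 250 bases before to 50 after a start that RefSeq annotates (GRCm38.p6), 5′ to 3′ along the gene; the Nlgn1 start lies inside the gene's bounds in the deposited table. Capitals mark the RE1 left part (TTCAGCACC), the cyclic AMP response element (TGACGTCA), the GC box (GGGCGG) and the ETS core (CCGGAAG) on either strand.
Syn1, chrX:20920869-20921168, minus strand: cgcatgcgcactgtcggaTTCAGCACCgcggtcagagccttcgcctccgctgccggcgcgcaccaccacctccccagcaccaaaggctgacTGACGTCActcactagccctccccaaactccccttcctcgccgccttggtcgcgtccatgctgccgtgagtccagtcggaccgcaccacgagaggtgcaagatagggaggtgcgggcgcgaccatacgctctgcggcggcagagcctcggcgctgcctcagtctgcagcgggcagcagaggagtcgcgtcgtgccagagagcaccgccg
Unc13a, chr8:71671708-71672007, minus strand: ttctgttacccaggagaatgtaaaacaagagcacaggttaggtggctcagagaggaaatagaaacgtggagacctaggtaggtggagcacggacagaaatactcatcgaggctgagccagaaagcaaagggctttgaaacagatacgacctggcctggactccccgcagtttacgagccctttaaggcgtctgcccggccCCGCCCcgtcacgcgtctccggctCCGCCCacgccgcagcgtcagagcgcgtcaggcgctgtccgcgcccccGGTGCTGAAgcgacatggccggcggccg
Nlgn1, chr3:26153937-26154236, minus strand: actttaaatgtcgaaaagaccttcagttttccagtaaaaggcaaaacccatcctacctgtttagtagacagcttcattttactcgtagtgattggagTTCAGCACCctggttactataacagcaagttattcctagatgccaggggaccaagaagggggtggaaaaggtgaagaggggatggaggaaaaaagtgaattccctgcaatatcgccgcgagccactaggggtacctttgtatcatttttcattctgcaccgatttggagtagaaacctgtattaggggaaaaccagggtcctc
Unc13b, chr4:43058703-43059002, plus strand: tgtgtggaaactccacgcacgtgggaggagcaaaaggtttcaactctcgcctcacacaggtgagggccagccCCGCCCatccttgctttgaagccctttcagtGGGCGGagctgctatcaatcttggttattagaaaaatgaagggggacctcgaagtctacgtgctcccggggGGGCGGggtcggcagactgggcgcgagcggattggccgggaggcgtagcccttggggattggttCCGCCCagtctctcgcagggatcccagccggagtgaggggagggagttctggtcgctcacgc
Vamp5, chr6:72380419-72380718, minus strand: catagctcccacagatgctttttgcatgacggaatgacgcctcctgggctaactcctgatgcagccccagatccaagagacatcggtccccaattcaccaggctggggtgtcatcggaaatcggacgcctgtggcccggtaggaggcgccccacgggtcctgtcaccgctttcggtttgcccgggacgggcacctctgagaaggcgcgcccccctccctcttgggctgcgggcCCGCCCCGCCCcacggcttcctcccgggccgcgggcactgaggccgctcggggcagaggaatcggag

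RefSeq windows were at hand for 61 of the 77 genes, 84 windows in all. The RE1 left part stood in 3 of the 84 (3.57%), against 122 of 32851 windows of the same length over all genes (0.371%). Here and below, the windows over all genes were not limited to genes in the deposited table. Members all passed that table's count filter, so the shares and medians compare unlike sets. Of the 84 windows, 52 belonged to lower members. The fuller element, TTCAGCACC followed after 2 bases by GGACAG, stood in 0 of the 84 and in 4 windows over all genes. A cyclic AMP response element was found in the Syn1 window only (1.19% of member windows, 1.79% of all). GC boxes were common: they stood in 9 of 11 windows of higher members (81.8%), 26 of 52 windows of lower members (50.0%), 14 of 21 windows of members that did not pass (66.7%) and 35.7% of all windows. In the Vamp5 window a pair of GC boxes overlap. The ETS core (3.57% of member windows, 8.86% of all) and the letters TATAAA (5.95% against 13.6%) were found less often in member windows, which was not tested. Median CpG dinucleotides per window were 25 for higher members, 14 for lower members and 23 for members that did not pass, against 7 over all windows. A match describes these letters and shows no binding.

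The presynaptic release machinery had 17 members, of which 3 were higher (17.6%; 26.1% of all genes), 11 lower (64.7%; 29.4%) and 3 did not pass, with a median log2 fold change of -1.97. Of the lower ones 8 entered through Input alone. Among its neuronal SNAREs, Snap25 and Vamp2 were lower. Snap25, the plasma membrane SNARE of nerve terminals, had 4.79, 8.20 and 6.94 CPM in Positive, against 110, 99.1 and 103 CPM in Input. Its highest sorted library lay far below its lowest Input library, and the log2 fold change was -4.02 ± 0.21 (SE; adjusted p = 3.02e-06), among the largest of the 77. Vamp2, the vesicle SNARE, differed by less: it had 81.2, 67.6 and 102 CPM in Positive, against 149, 178 and 193 CPM in Input. The groups did not overlap, and the log2 fold change was -1.05 ± 0.18 (adjusted p = 0.00117). Vamp1, which serves the same step in some nerve terminals, had 4.52, 11.8 and 3.55 CPM in Positive and 13.1, 6.19 and 16.9 CPM in Input. The groups overlapped because replicate 1223 ran the other way, and the log2 fold change of -0.99 did not pass (adjusted p = 0.141); without replicate 1223 it was -1.89 (adjusted p = 0.00246).

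Among the genes that prime vesicles, the Munc13 family divided. Unc13b, which encodes Munc13-2, a form also made outside the brain, was the most strongly raised of all 77 genes: 129, 123 and 113 CPM in Positive, against 39.4, 24.8 and 27.9 CPM in Input. Every sorted library lay above every Input library (log2 1.98 ± 0.19, adjusted p = 4.07e-05). Unc13a, the main form of forebrain synapses, had 3.08, 5.76 and 4.98 CPM in Positive and 17.9, 21 and 14 CPM in Input. It was lower with no overlap (log2 -1.97 ± 0.32, adjusted p = 0.000916), as was Unc13c (log2 -2.22). Rims2, a scaffold of the release site, was lower at log2 -3.57, with 2.49, 3.55 and 2.65 CPM in Positive and 36.2, 31.6 and 31.6 CPM in Input. The large active zone proteins Bsn and Pclo were set apart by 1 library. Bsn had 1.99, 10.9 and 2.49 CPM in Positive, against 34.3, 24.8 and 29.3 CPM in Input, and was lower (log2 -2.77, adjusted p = 0.00388). Pclo had 5.83, 19.5 and 6.72 CPM in Positive, against 22, 19.6 and 12.3 CPM in Input. Its groups overlapped, and its log2 fold change was -0.82 (adjusted p = 0.174), or -1.45 without replicate 1223 (adjusted p = 0.0168). In the same Positive 1223 library the neuronal markers Meg3 (15.1 CPM, against 2.49 and 4.87 CPM in the other two) and Gad2 (8.87 CPM, against 3.26 and 3.65 CPM) were also highest, as were Tubb3 and Celf4. Camk2a (3.10 CPM, against 5.43 and 5.82 CPM) and Gad1 were lowest there, and Stmn2 and Eno2 lay in between. The 8 neuronal markers summed to 74.3 CPM in Positive 1223, against 50.8 CPM in 1222 and 74.8 CPM in 1227. Of the 46 lower members, 19 had their highest Positive value in 1223 (41.3%; 34.6% of all lower genes did).

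The Rab3 GTPases, which tether vesicles before release, divided likewise. Rab3d, known from secretory granules outside neurons, had 44.3, 56.3 and 57.1 CPM in Positive, against 13.8, 23.0 and 16.9 CPM in Input (log2 1.58 ± 0.22, adjusted p = 0.000336). Rab3a, the main form of synaptic vesicles, had 14, 15.5 and 17.3 CPM in Positive, against 55.4, 78.7 and 59.4 CPM in Input (log2 -2.04 ± 0.19, adjusted p = 3.12e-05). Neither gene's groups overlapped, and Rab3c was lower as well (log2 -2.25). Both complexins, which clamp and trigger the assembled SNARE complex, were lower by different amounts. Cplx1 had 2.53, 3.33 and 4.92 CPM in Positive and 50.3, 42.0 and 72.0 CPM in Input (log2 -3.92), whereas Cplx2 had 44.6, 50.3 and 47.6 CPM in Positive and 121, 107 and 167 CPM in Input (log2 -1.48). Stxbp5, the SNARE-binding protein tomosyn, did not pass (log2 -0.30, adjusted p = 0.317).

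Of 11 vesicle membrane genes, 8 were lower (72.7%; 29.4% of all genes), Sypl was higher and 2 did not pass (median log2 fold change -3.25). Of the 8, only Sv2c reached 50 counts in both fractions; the other 7 entered through Input alone, where 80.7% of all genes were lower. Syp, the classic marker of synaptic vesicles, had 4.70, 4.21 and 11.1 CPM in Positive, against 66.0, 61.9 and 79.5 CPM in Input (log2 -3.31 ± 0.35, adjusted p = 7.49e-05). Its relative Sypl, found on transport vesicles of many cells, had 288, 331 and 318 CPM in Positive, against 161, 216 and 185 CPM in Input (log2 0.74 ± 0.14, adjusted p = 0.00233). The groups of both genes were fully apart, in opposite directions. Synaptogyrins showed a similar divide. Syngr2, the form of non-neuronal cells, had 98.4, 112 and 105 CPM in Positive and 105, 98.3 and 112 CPM in Input, which overlapped (log2 fold change of 0 to 2 decimals, SE 0.12, adjusted p = 0.987). Syngr1 had 9.04, 5.76 and 6.72 CPM in Positive and 78.6, 44.8 and 85.4 CPM in Input, lower at log2 -3.25 with no overlap. Syngr3 was lower at log2 -3.57, with 0.452, 1.11 and 0.794 CPM in Positive and 7.05, 12.8 and 6.06 CPM in Input.

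SV2 proteins are transporter-like membrane proteins of synaptic vesicles. Sv2a had the lowest log2 fold change of all 77 genes, -4.42 ± 0.35 (adjusted p = 1.35e-05), with 7.37, 5.99 and 13.5 CPM in Positive and 155, 269 and 175 CPM in Input. Sv2c had 17.3, 43.2 and 32.0 CPM in Positive and 52.9, 220 and 64.9 CPM in Input. Replicate 1223 was highest in both fractions, the groups did not overlap, and the log2 fold change was -1.87 (adjusted p = 0.0209), or -1.59 without Positive 1222 (adjusted p = 0.0512). The synapsins coat vesicles and hold them in reserve. Syn1 was lower at log2 -4.29 ± 0.25, with 2.44, 2.66 and 1.85 CPM in Positive and 35.2, 47.7 and 49.7 CPM in Input, and Syn2 at log2 -2.47. Syn3 did not pass (log2 -0.70, adjusted p = 0.133); with 8.23, 15.5 and 5.72 CPM in Positive and 16.5, 16 and 13.7 CPM in Input it overlapped through Positive 1223, and it passed without replicate 1223 (log2 -1.11, adjusted p = 0.0174). Snap91 was lower at log2 -4.08, with 1.94, 2.22 and 3.49 CPM in Positive and 48.4, 39.6 and 44.0 CPM in Input.

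Of 8 synaptotagmins, 6 were lower (75%; 29.4% of all genes) and 2 did not pass (median log2 fold change -3.23). Of the 6, only Syt11 reached 50 counts in both fractions, and 5 entered through Input alone. Syt1, the calcium sensor of fast release, had 1.27, 2.44 and 3.44 CPM in Positive, against 45.7, 52.9 and 44.6 CPM in Input (log2 -4.34 ± 0.35, adjusted p = 1.58e-05). Syt11, a family member that does not bind calcium, had 82.0, 62.3 and 105 CPM in Positive, against 884, 1210 and 982 CPM in Input (log2 -3.62 ± 0.23, adjusted p = 5.18e-06). Its groups were far apart, and it made up most of the family's summed level, which was 138, 122 and 173 CPM in Positive and 1016, 1356 and 1126 CPM in Input. Syt9 (log2 -4.24) had 0.814, 2.44 and 0.159 CPM in Positive and 17.8, 12.6 and 16.8 CPM in Input, Syt13 was at log2 -3.41 and Syt4 at -3.06. Syt7, a sensor of slower exocytosis also known from lysosomes, had 32.5, 27.1 and 38.8 CPM in Positive and 26.2, 21 and 31.1 CPM in Input. These overlapped, and the log2 fold change of 0.32 ± 0.21 did not pass (adjusted p = 0.213). Syt12 was lower by a margin that 8 alternative settings lost (log2 -0.84, adjusted p = 0.0416; 8.73, 10.4 and 12.2 CPM in Positive, 16.6, 12.8 and 26.0 CPM in Input). Syt15 had 11.2, 12 and 10.2 CPM in Positive, against 4.21, 14.2 and 4.01 CPM in Input. Input 1223 stood above all the other libraries, and the log2 fold change of 0.67 (adjusted p = 0.288) was 1.43 without it (adjusted p = 0.00599).

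The 22 SNAREs of general membrane traffic and their cofactors were mixed: 7 were higher (31.8%), 5 lower (22.7%) and 10 did not pass, with a median log2 fold change of 0.17. Of the 22, 21 reached 50 counts in both fractions, and over all genes that did so 30.4% were higher and 19.9% lower, so that these shares are near the background. Their summed level was 1503, 1438 and 1536 CPM in Positive, against 1253, 1217 and 1253 CPM in Input. The largest differences were in Vamp5 and Stx3. Vamp5, a VAMP first known from muscle, had 39.0, 37.5 and 44.2 CPM in Positive and 12.4, 11 and 13.3 CPM in Input (log2 1.71 ± 0.17, adjusted p = 4.84e-05). Stx3, a syntaxin of the apical surface of epithelia, had 38.2, 43.0 and 39.9 CPM in Positive and 14.3, 10.6 and 14.2 CPM in Input (log2 1.61 ± 0.18, adjusted p = 9.84e-05). In both the groups were far apart and the sorted libraries close together. Vamp3 (cellubrevin) and Stx12, SNAREs of recycling endosomes, had the highest length-corrected levels among sorted cells. Vamp3 had 232, 246 and 267 CPM in Positive and 117, 136 and 129 CPM in Input (log2 0.96 ± 0.12, adjusted p = 0.000216). Stx12 had 182, 197 and 209 CPM in Positive and 98.9, 109 and 106 CPM in Input (log2 0.90 ± 0.12, adjusted p = 0.000262). Neither overlapped.

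Snap23, the form of SNAP25 that cells outside the nervous system use, had 88.7, 76.3 and 81.0 CPM in Positive, against 57.5, 53.7 and 55.4 CPM in Input. Every sorted library was above every Input library, by log2 0.56 ± 0.13 (adjusted p = 0.00505); without replicate 1227 the log2 fold change was 0.57 with an adjusted p of 0.0736. Stx6, of the trans-Golgi network and endosomes, had 139, 141 and 123 CPM in Positive and 80.7, 107 and 90.2 CPM in Input (log2 0.54, adjusted p = 0.0122). Stx17, which fuses autophagosomes with lysosomes, had 41.7, 46.8 and 46.0 CPM in Positive and 33.5, 28.4 and 30.6 CPM in Input (log2 0.53, adjusted p = 0.0125). Both small rises were without overlap between groups, and each lost its call in 3 settings, among them the one without replicate 1227. The opposite was seen in 5 genes. Stx7, of late endosomes, had 112, 106 and 96.8 CPM in Positive and 152, 149 and 148 CPM in Input (log2 -0.51, adjusted p = 0.0059; -0.46 and 0.103 without replicate 1227). Snap47 was lower at log2 -0.85, Stxbp4 at -0.94, with a call that 7 settings lost, and Stxbp6 (amisyn) at -1.01, with 17.0, 19.5 and 23.9 CPM in Positive and 34.1, 50.3 and 38.4 CPM in Input. Stxbp2, which serves secretion in blood cells, had 20.6, 8.65 and 9.43 CPM in Positive and 40.6, 30.6 and 32.2 CPM in Input (log2 -1.39, adjusted p = 0.00723; -1.24 and 0.054 without replicate 1227). Its highest sorted library was 1222, which was also the highest in the summed microglia and macrophage markers given above.

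Among the 10 that did not pass, Stx4a, the plasma membrane partner of Snap23, had 73.6, 66.5 and 79.1 CPM in Positive and 70.8, 61.3 and 74.9 CPM in Input. The groups overlapped, with a log2 fold change of 0.08 ± 0.14 (adjusted p = 0.638). Nsf, which takes used SNARE complexes apart, was at log2 0.06 ± 0.24 and Snap29 at -0.01 ± 0.13. Stx16 (0.43), Stx5a (0.28), Stx8 (0.22), Vamp8 (0.17), Vamp4 (0.16) and Stx2 (0.16), syntaxins and VAMPs of the Golgi, endosomes and cell surface, lay slightly above 0. Stx18, of the endoplasmic reticulum, was at log2 -0.50 (adjusted p = 0.0571) and passed when the replicate numbers were kept as a block (-0.48, adjusted p = 0.0228). Stxbp3a, a syntaxin-binding gene known outside neurons, falls outside the symbol rule and was lower at log2 -0.68 ± 0.15 (adjusted p = 0.00441).

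Paralogs were next compared within each library, which removes the library's scaling from the ratio. Of 12 pairs listed 11 were tested, and 9 are given here. Ratios were taken of estimated counts, with a small constant added to both counts. In Positive, Snap23 exceeded Snap25 by a log2 ratio of 3.65 ± 0.51 (SD, n = 3), and in Input it was below it at -0.90 ± 0.03. The same change of sign was seen for Rab3d over Rab3a (1.74 ± 0.09 in Positive, -1.86 ± 0.12 in Input) and for Vamp3 over Vamp2 (1.59 ± 0.24 in Positive, -0.44 ± 0.13 in Input). In these 3 pairs every Positive ratio was above 0 and every Input ratio below. Sypl over Syp was 5.68 ± 0.74 in Positive and 1.43 ± 0.32 in Input. Syngr2 over Syngr1 was 3.88 ± 0.40 in Positive and 0.65 ± 0.42 in Input, Dlg1 over Dlg4 3.77 ± 0.17 and 1.04 ± 0.45, Nlgn2 over Nlgn3 2.60 ± 0.63 and 0.55 ± 0.12, and Homer3 over Homer1 2.53 ± 0.13 and 1.40 ± 0.36, each with Positive given before Input. Vamp5 over Vamp2 was -1.04 ± 0.18 in Positive and -3.81 ± 0.21 in Input. In all 9 pairs the fractions did not overlap, and each two-sided exact permutation test gave p = 0.1, the smallest that 3 libraries against 3 allow (0.1 after Benjamini-Hochberg adjustment over the 11), so no pair could pass 0.05. Snap25, Syp, Syngr1, Dlg4, Nlgn3 and Homer1 entered through Input alone and their partners did not. The ratios over these genes were thus selected toward higher values in Positive, and their lack of overlap supports nothing. Only in the pairs of Rab3d with Rab3a, Vamp3 with Vamp2 and Vamp5 with Vamp2 did both genes reach 50 counts in both fractions. The gene lengths cancel when a ratio is compared between fractions but not in the ratio itself. Divided by exon length, Vamp3 and Vamp2 lay within their spread of each other in Input (44.1 ± 3.4 and 45.4 ± 5.93 CPM per kilobase). Their change of sign thus rests on values not scaled to length.

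**Figure D2:**
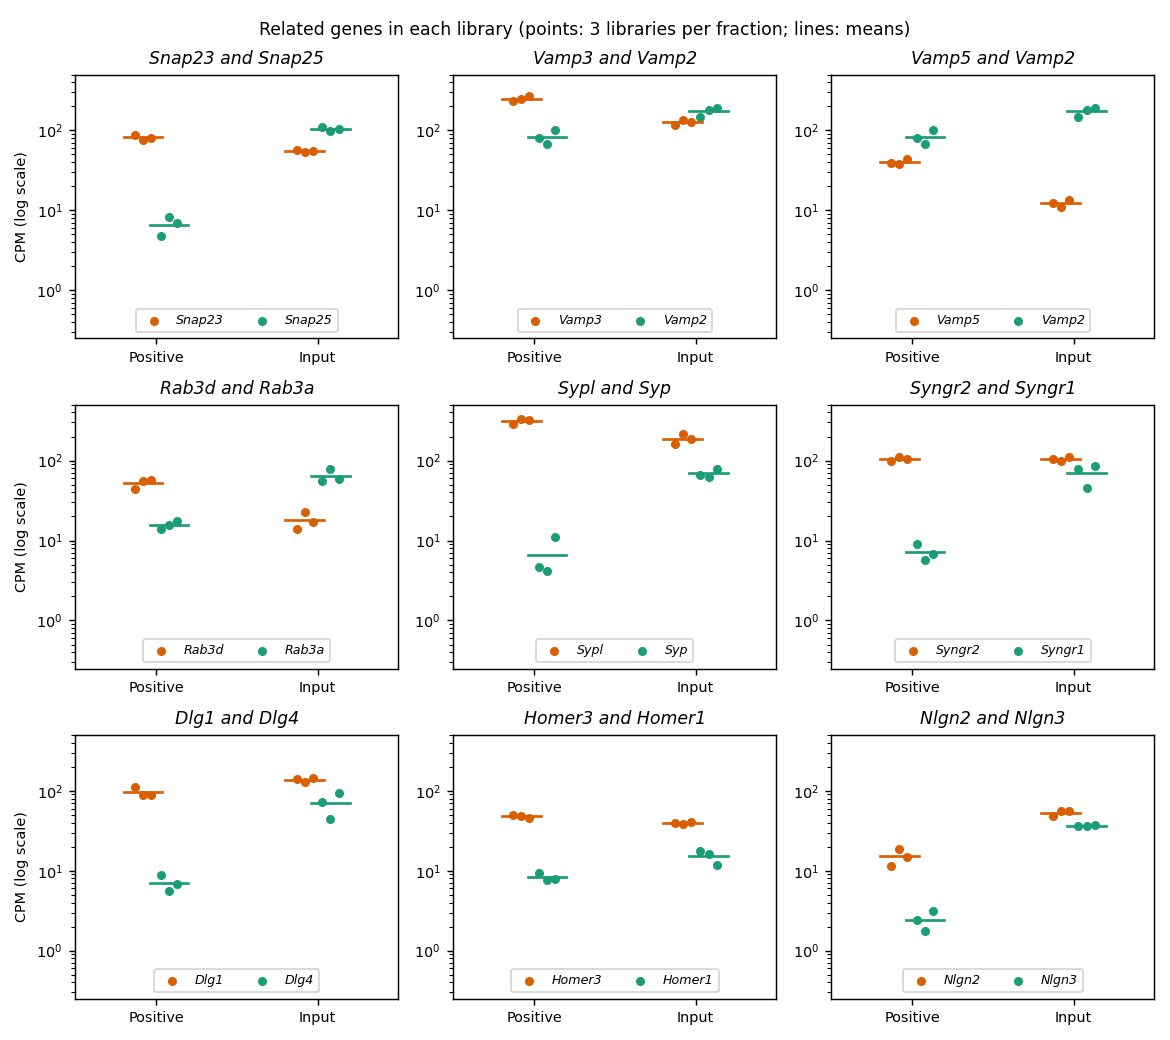
CPM of both members of 9 paralog pairs in each library (log y axis, 1 point per library, Positive left of Input). In CPM, without scaling to gene length, Snap23 and Snap25 change places between fractions, as do Rab3d with Rab3a and Vamp3 with Vamp2. Sypl stays above Syp in both.

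All 6 synaptic adhesion genes tested were lower in Positive (29.4% of all genes were), with no overlap (32.6% of all genes), and none was higher. Of the 6, 3 reached 50 counts in both fractions, where 19.9% of all genes were lower. The other 3 entered through Input alone, where 80.7% of all genes were lower. Neurexins are the presynaptic side of the bridge. Nrxn2 had 13.7, 13.5 and 17.4 CPM in Positive and 169, 164 and 202 CPM in Input (log2 -3.58 ± 0.17, adjusted p = 2.7e-06), and Nrxn3 was at log2 -3.27. Neuroligins are their postsynaptic partners. Nlgn3 had 2.40, 1.77 and 3.12 CPM in Positive and 36.7, 36.2 and 36.8 CPM in Input (log2 -3.84 ± 0.24). Nlgn1 had 0.859, 2.66 and 2.97 CPM in Positive and 22, 22.4 and 21.8 CPM in Input (log2 -3.42). Nlgn2, the neuroligin of inhibitory synapses, had the smallest difference, with 11.4, 18.8 and 15 CPM in Positive and 48.6, 55.7 and 56.2 CPM in Input (log2 -1.85 ± 0.21, adjusted p = 9.29e-05).

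Of 13 scaffold genes 10 were lower (76.9%; 29.4% of all genes), Shank3 was higher and 2 did not pass (median log2 fold change -1.53). Of the 10, 7 entered through Input alone. Shank3, a master scaffold of excitatory synapses, had 252, 184 and 196 CPM in Positive, against 69.6, 47.1 and 72.3 CPM in Input. Its lowest sorted library was well above its highest Input library, by log2 1.73 ± 0.20 (adjusted p = 0.000116), the second largest rise of the 77. Shank1 was lower at log2 -2.73. Among the membrane-associated guanylate kinases, Dlg4 (PSD-95) had 8.77, 5.54 and 6.83 CPM in Positive and 73.0, 44.8 and 93.4 CPM in Input (log2 -3.29 ± 0.30, adjusted p = 3.1e-05). Dlg2 (PSD-93) was lower at log2 -4.19, with 2.40, 1.33 and 2.33 CPM in Positive and 37.2, 31.8 and 49.2 CPM in Input, and Dlg3 at -2.85. Dlg1, a polarity protein of many cell types, had 111, 88.9 and 88.1 CPM in Positive and 141, 129 and 145 CPM in Input. It was lower by a smaller amount (log2 -0.53, adjusted p = 0.0114; -0.43 and 0.157 without replicate 1227), as was Dlg5 (log2 -0.65, adjusted p = 0.0125), whose call was lost in 4 settings (-0.62 and 0.0723 without replicate 1227).

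Dlgap proteins link PSD-95 to Shank. Dlgap1 was lower at log2 -3.63, with 7.64, 8.65 and 5.14 CPM in Positive and 98.3, 69.5 and 88.9 CPM in Input, and Dlgap3 at -3.96, with 2.49, 4.21 and 2.38 CPM in Positive and 35.3, 33.8 and 61.6 CPM in Input. Dlgap4 stood apart, with 90.9, 103 and 93.7 CPM in Positive and 90.3, 84.5 and 95.7 CPM in Input; the groups overlapped and the log2 fold change was 0.08 ± 0.12 (adjusted p = 0.587). Of the Homer proteins, which tie Shank to glutamate receptors and calcium stores, Homer3 had 49.2, 48.8 and 45.7 CPM in Positive and 39.3, 38.2 and 41.2 CPM in Input. All its sorted libraries were above all Input libraries, but the log2 fold change of 0.27 ± 0.13 did not pass (adjusted p = 0.105). Homer1 was lower at log2 -0.85 (adjusted p = 0.0212), a call lost in 5 settings (-0.98 and 0.0793 without replicate 1227), with 9.32, 7.76 and 7.89 CPM in Positive and 17.6, 16.2 and 11.7 CPM in Input. Homer2 had 3.84, 12 and 2.75 CPM in Positive and 14.3, 16.6 and 18.1 CPM in Input. Positive 1223 was its highest sorted library, and the call (log2 -1.53, adjusted p = 0.032) was lost in 7 settings.

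**Figure D3:**
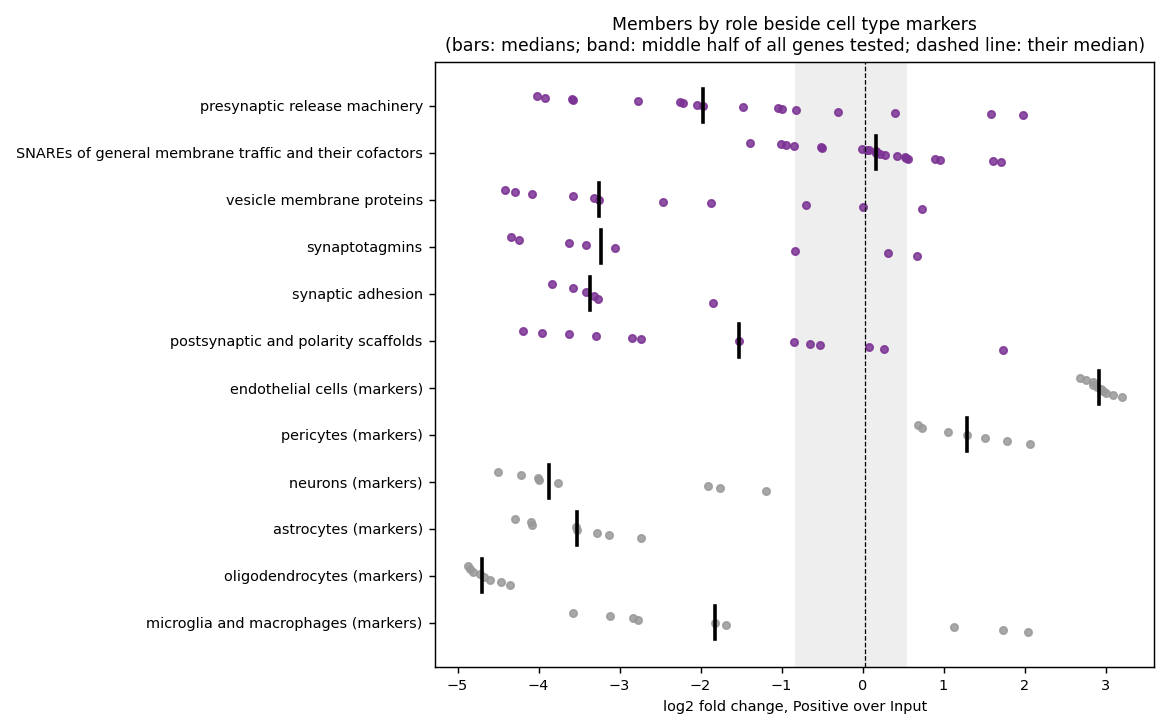
Log2 fold change of Positive over Input (axis labelled in log2) for the members of each role beside the marker lists of brain cell types, 1 point per gene and a bar at the median of each set; the dashed line is the median of all genes and the band runs between their quartiles. Medians of the adhesion genes (-3.37), vesicle membrane genes (-3.25), synaptotagmins (-3.23) and neuronal markers (-3.87) all lie below -3, in sets where 3 of 6, 7 of 11, 5 of 8 and 6 of 8 genes entered through Input alone and were so selected toward low values. The median of the general SNAREs is 0.17 and that of all genes 0.03.

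Set beside the marker lists, of the 12 higher members 0 reached the lowest endothelial marker (2.69), so that each was raised less than the endothelial markers were. The 7 pericyte markers, also all higher, ran from 0.69 to 2.07, and no member exceeded the top of that range. By the gene annotation in the deposited table, 52 members carried a synapse term. Of these, 5 were higher (9.62%; 26.1% of all genes), 38 lower (73.1%; 29.4% of all genes) and 9 did not pass, with a median log2 fold change of -2.36. The 25 without one had 7 higher (28%), 8 lower (32%) and 10 that did not pass (median 0.16), shares near those of all genes. Such a term was carried by 349 of all genes, 62 higher (17.8%), 195 lower (55.9%) and 92 not passing (median -0.91). Of all genes that entered through Input alone, 80.7% were lower. Through Input alone entered 28 of the 52 members with a term, 3 of the 25 without and 122 of the 349, so the difference in counts and medians between members with and without a term rests in part on how genes entered the table.

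To compare levels between genes, CPM was divided by the length of each gene's merged exons (GENCODE M21). On this scale of CPM per kilobase, the highest levels in sorted cells were those of Vamp3 (86 ± 6.19 in Positive and 44.1 ± 3.40 in Input; SD, n = 3 each), Stx12 (61.5 ± 4.27 and 32.9 ± 1.70), Syngr2 (59.2 ± 3.75 and 59.2 ± 3.94) and Sypl (37.4 ± 2.63 and 22.4 ± 3.27), Positive before Input in each pair. Stx12 and Syngr2 lay within their spread of each other in Positive, as did Vamp8 (31.0 ± 4.67) and Stx4a (30.9 ± 2.67). Shank3 was at 23.0 ± 3.96 in Positive and 6.86 ± 1.5 in Input, which moved it to rank 9 of 77 among sorted cells, against rank 39 in Input. Syt11 ranked 13 among sorted cells at 16 ± 4.10, whereas it led the order in Input at 197 ± 32.2. Syngr2, Vamp2 (21.9 ± 4.51 in Positive, 45.4 ± 5.93 in Input), Vamp3 and Sv2a (1.93 ± 0.863 in Positive, 43.1 ± 13.1 in Input) came next in Input, the last 3 within their spread. Snap25 was at 0.978 ± 0.254 in Positive and 15.3 ± 0.801 in Input, and Snap23 at 19.1 ± 1.46 in Positive and 12.9 ± 0.439 in Input.

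**Figure D4:**
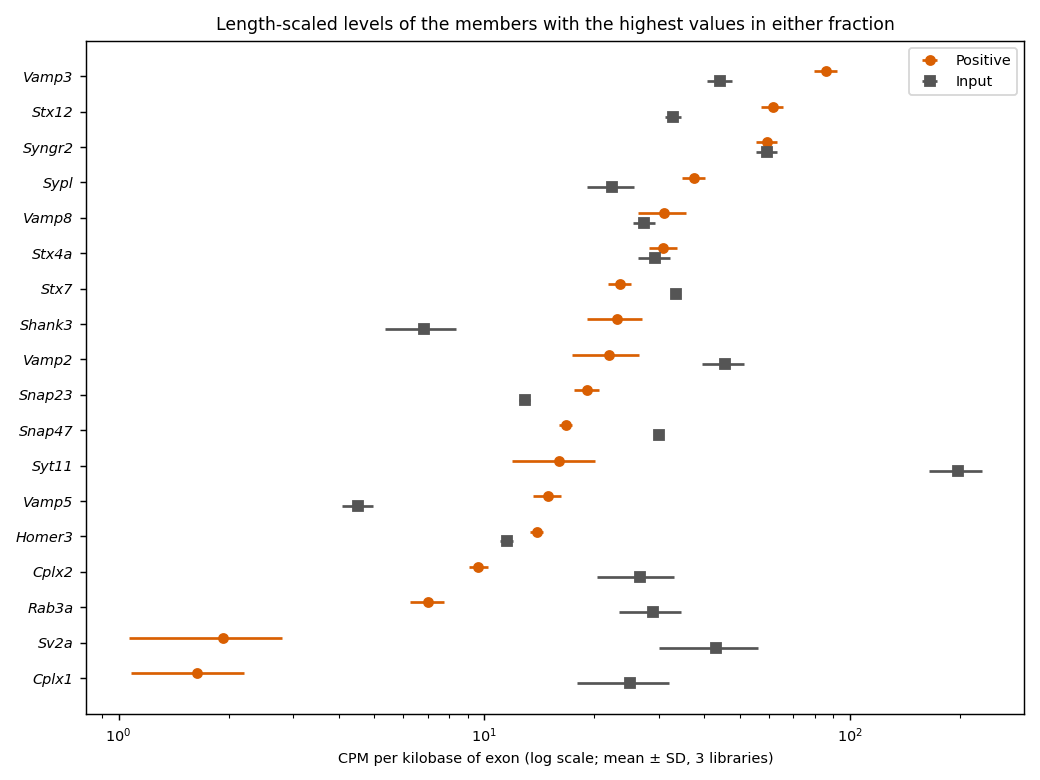
CPM per kilobase of merged exon (log axis; mean with 1 SD, 3 libraries per fraction) for 18 of the members that rank among the highest 15 in either fraction. Vamp3 leads in Positive at 86 and Syt11 in Input at 197, and Shank3 and Vamp5 are among those set apart by higher Positive levels.

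On mm10, Vamp5 (chr6:72368049-72380468) and Vamp8 (chr6:72385221-72390667) are 4752 bases apart on the minus strand; Vamp5 was higher and Vamp8 did not pass. Among the genes that led each way, Unc13b lies at chr4:43058984-43264887, Shank3 at chr15:89499857-89560260, Sv2a at chr3:96181227-96195180 and Syt1 at chr10:108497650-109010975. Whether counting used strand is not given in the sources used here, so reads of a gene and an overlapping or antisense gene cannot be told apart, and reads shared by close paralogs may have been split.

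Genes of the surrounding pathway outside the symbol rule were read from lists. Of all genes tested, 26.1% were higher and 29.4% lower. Of 20 further SNAREs and disassembly factors tested, 1 was higher, 4 were lower and 15 did not pass (median log2 fold change 0.09). Gosr2, a Golgi SNARE, was higher at 0.49 ± 0.14 (adjusted p = 0.015), with 200, 173 and 225 CPM in Positive and 141, 134 and 152 CPM in Input. Ykt6 did not differ detectably (103 ± 16.9 CPM in Positive and 103 ± 18.0 CPM in Input, SD, n = 3). Napa, the SNAP adaptor of NSF, was lower at -0.47 and its brain form Napb at -2.68. Napb entered through Input alone, where 80.7% of all genes were lower. The 10 exocyst genes tested encode the complex that tethers vesicles to the plasma membrane. Of them 6 were higher (60%, against 26.1% of all genes), 1 (Exoc3, -0.61) was lower and 3 did not pass (median 0.66). Of the 10, 9 entered through both fractions, where 30.4% of all genes were higher. Exoc3l (2.36), 1 of the 6, entered through Positive alone, where 49.2% of all genes were higher. Exoc3l was thus selected toward higher Positive values. Exoc2 had 129, 111 and 134 CPM in Positive and 66.9, 75.3 and 65.1 CPM in Input (log2 0.86), and Exoc6b was higher at 0.50. Exoc4 did not pass (-0.14, adjusted p = 0.48).

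Of 10 genes of Rab27, synaptotagmin-like and secretory granule proteins tested of 20 listed, 4 were higher (26.1% of all genes), 2 lower (29.4%) and 4 did not pass (median log2 fold change -0.06). Esyt2, an extended synaptotagmin that joins the endoplasmic reticulum to the plasma membrane, had 1065, 939 and 856 CPM in Positive and 167, 182 and 141 CPM in Input (log2 2.55 ± 0.16), and Esyt1 was at 2.06 ± 0.13. Vwf, the cargo of endothelial storage granules, was at 2.61 ± 0.25. Sytl2 (-3.11) and Rph3a (-3.50), which binds Rab3 at nerve terminals, were lower. Rph3a entered through Input alone and was so selected toward low Positive values. The 16 genes of vesicle endocytosis divided between 5 higher, 6 lower and 5 that did not pass (median -0.03). Of the 16, 5 entered through Input alone, where 80.7% of all genes were lower. Clathrin heavy chain (Cltc) had 1009, 892 and 812 CPM in Positive and 623, 567 and 626 CPM in Input (log2 0.58), and Dnm2, the dynamin of all tissues, was at 0.65 ± 0.12. Also higher were Itsn2 (1.17), Cltb (0.84) and Sh3gl1 (0.57). Dnm1, the dynamin of neurons, was at -3.23 ± 0.17, and Picalm, a relative of Snap91, did not pass (-0.21). The 3 vesicular transmitter transporters tested of 8 listed were all lower, with Slc17a7 at -4.91, Slc32a1 at -2.66 and Slc6a17 at -1.24. Of these 3, 2 entered through Input alone. Of 18 further adhesion and scaffold genes tested of 28 listed, 2 were higher, 13 lower and 3 did not pass (median -2.03). Through Input alone entered 10 of the 18, so that the count of lower genes rests in part on how they entered the table. The higher ones were Magi3 (1.88 ± 0.19), a scaffold of cell junctions, and Erc1 (1.17 ± 0.18); Lin7c (-0.16) and Ppfia1 (0.44) did not pass.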

How the data were processed

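The authors deposited estimated counts and log2 values per gene and library; per the file headers, they kept genes whose raw value was 50 or more in every library of 1 condition or both. Per the submitters' processing notes the build was mm10 and DESeq was used. For aligner, counter and use of strand, nothing is stated: not given in the sources used here. Values that the authors deposited as log2 differ from the log2 counts by a library factor and a gene constant, and served only as an alternative (limma 3.58.1).

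Before testing, the estimated counts that the authors deposited were rounded. The test was that of edgeR 4.0.16 under R 4.3.3, with TMM factors (0.94 to 1.082), filterByExpr (minimum count 10, which removed 0 genes), and the quasi-likelihood test of Positive over Input with fraction as the only term, Benjamini-Hochberg adjusted over all 10989 genes. The biological coefficient of variation was 21.6%. Fold changes use a prior count of 0.125, their SE is the absolute log2 fold change over the square root of F, and the fit was tested on simulated data. CPM take each library's total after TMM correction as the scale.

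The members and the 22 gene lists were chosen with earlier results of these data known. The rule for values in every library took all higher members, in each role the 4 members with the highest mean CPM and the 4 called members with the largest change, and both genes of each pair (50 members). Values of 3 members that were counted with the rest are not reported here. Library values of Unc13a, Pclo, Vamp1, Bsn, Syn3, Syt15 and Homer2, and single genes outside the rule, were chosen after their values were seen. Of the pathway lists, the rule named the 3 highest genes and those called against the list's main direction, and the others named there were chosen likewise after their values were seen.

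Same-numbered libraries of the fractions deviated together across genes (correlations 0.45, 0.23 and 0.30 for 1222, 1223 and 1227, against -0.30 to 0.021 between other numbers), so the numbers were treated as pairs, in a block fit beside the main one, which has no block. RefSeq promoter windows (GRCm38.p6) and GENCODE M21 exon lengths were used with Python 3.11.15.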

Additional observations from a re-analysis of the deposited data

How the results depend on the processing

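The 16 alternatives were RLE scaling, scaling to library totals alone, no low-count filter, at least 50 estimated counts in all 6 libraries, a replicate block, each library and each replicate number left out, DESeq2 1.42.0 and limma on the deposited log2 values. Of 58 called members, 45 kept their call in every alternative that tested them (8 of 12 higher, 37 of 46 lower). With the replicate numbers as a block, 12 members were higher and 47 lower (30.0% and 31.7% of all genes), and Stx18 was the only member whose call changed. DESeq2 called 12 higher and 47 lower, limma 11 and 43. Scaling to library totals alone moved the median of all genes by -0.16 and the share of calls that were higher to 37.1%, against 47.1% with TMM; 10 members were then higher and 47 lower.

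Leaving out libraries gave 8 to 14 higher and 38 to 48 lower members. All genes higher ran from 1741 (without replicate 1227) to 2755, general SNAREs higher from 4 to 8 and lower from 2 to 5, scaffolds lower from 6 to 10 and synaptotagmins higher from 0 to 1 (Syt15, without replicate 1223 or its Input library). The low ends for general SNAREs and scaffolds were reached without replicate 1227, or for scaffolds also without its Positive library. With at least 50 counts in all 6 libraries, which left 8509 genes and 45 members, 2060 of all genes and 16 members were lower: 3 in release, 1 in vesicle membrane, 1 in synaptotagmins, 3 in adhesion, 3 in scaffolds and the rest in the general SNAREs.

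Signs changed only in members near 0: Stx4a (-0.07 with library totals, -0.06 with at least 50 counts), Nsf (-0.10 and -0.08; -0.12 to 0.27 with libraries left out), Dlgap4 (-0.07 and -0.06; -0.01 to 0.15 with libraries left out, -0.01 without replicate 1223), Syngr2 (0.07 with limma, -0.10 to 0.05 with libraries left out) and Snap29 (0.06 with limma, -0.04 to 0.05 with libraries left out). The 9 paralog differences given kept their direction. The filter removed no gene, so its alternative could not move a value. With 3 libraries per fraction and replicate 1223 the shallowest, differences in members of a few CPM are the least precise.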
